A study of Mus musculus with 3 samples.

Results

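Saa3, Cd38, Serpinb9g, Pla2g7, Vcan, Fn1, Apoc2 and Plcb1 are 8 of the 33696 genes counted in droplet single-cell RNA libraries of mouse bone marrow. They were picked because earlier results of these data showed them low in monocyte-like cells of Fabp4 homozygous knockout mice, or as markers of a wild-type monocyte subset. All 8 were found in the files. Low homozygous levels and high levels in that subset are therefore the basis of the choice, and they are given below as a description without a test. The series title asks about leukaemia stem cells and Fabp4, the gene of a cytosolic fatty acid carrier. The groups were homozygous knockout for Fabp4, heterozygous knockout and wild type, with 1 library of bone marrow each. Marrow of 2 mice was mixed in each library, and cells cannot be told apart by mouse here. Strain, age, sex, the Fabp4 allele and any leukaemia were not stated for these samples.

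Monocytes are made in the marrow from granulocyte-monocyte progenitors and pass through dividing and then maturing stages before they enter the blood. Activated monocytes and macrophages can secrete acute-phase proteins, matrix proteins and lipid-modifying enzymes. Saa3 is the serum amyloid A of extrahepatic cells in the mouse and is induced by inflammatory signals. Cd38 is a surface enzyme that consumes NAD and makes cyclic ADP-ribose. Pla2g7 is the secreted hydrolase of platelet-activating factor and oxidised phospholipids. Vcan (versican) and Fn1 (fibronectin) are matrix molecules that classical monocytes also make. Apoc2 is the apolipoprotein cofactor of lipoprotein lipase, Plcb1 is a phospholipase C that acts downstream of G protein-coupled receptors, and Serpinb9g belongs to the mouse family of intracellular serpins related to the granzyme B inhibitor.

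Kept cells numbered 4038 in the homozygous, 7275 in the heterozygous and 5181 in the wild-type library, with median UMI counts of 8740.5, 7396 and 9761 in that order. UMIs are counted molecules, and CPM means counts of a gene scaled to 1000000 UMIs over the cells summed. Intervals are 95% and cover counting error only. With 1 library a genotype there is no replicate check, so each difference compares libraries and not genotypes. Fabp4 itself had 3, 34 and 47 UMIs in kept cells of the homozygous, heterozygous and wild-type libraries. Barcodes shared by pairs of libraries numbered 21 to 26. The libraries also differed in Xist and Y-linked reads. Cells with Xist and no Y-linked UMI were 1471 of the 1656 homozygous, 393 of the 1287 heterozygous and 1695 of the 1791 wild-type monocyte-like cells, while Y-linked UMIs without Xist were found in 42, 541 and 10 cells.

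Monocyte-like cells were 41.0% of kept cells in the homozygous, 17.7% in the heterozygous and 34.6% in the wild-type library. The name rested on 10 monocyte markers, all detected in each library and summing to 5919.8, 4970.3 and 3813 CPM. Of these markers, 7 to 10 were raised in each cluster of the class, and the Kif26b-led cluster named below also scored high on erythroid markers. The 5 clusters in the class were filled unequally. A cluster led by the interferon-responsive genes Ifit3 and Ifi204 held 50.1% of homozygous, 47.3% of heterozygous and 12.2% of wild-type monocyte-like cells. A cluster led by Saa3, Vcan, Adgre4, Pla2g7, Ms4a8a and Cd38 held 17, 96 and 465 cells, although the 8 members were left out of the genes used for clustering. A cluster led by Ly6a and Cacna1e held 108, 353 and 683 cells. A dividing cluster led by Pimreg and Ccna2 held 348, 162 and 325 cells, and a cluster led by Kif26b and Prdx4 held 354, 67 and 99 cells. Marker sums of other cell types also differed. Mature neutrophil markers summed to 839.6 CPM in homozygous, 3480.3 CPM in heterozygous and 1329 CPM in wild-type monocyte-like cells, and the 10 macrophage markers to 163, 258 and 224 CPM, with Cd5l at 0 in the homozygous and wild-type libraries. The part of such RNA in the values below was not tested.

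In monocyte-like cells, the homozygous library had at most 0.5 times the wild-type level for 6 of the 8 genes, and the heterozygous library for 5. Among all genes with at least 20 UMIs, 4.52% were that low in the homozygous and 3.84% in the heterozygous comparison. The members were chosen on the homozygous values, so nothing is read from that count. The comparisons share the wild-type library. Saa3, Cd38, Serpinb9g, Pla2g7 and Vcan were low in both knockout libraries, whereas Fn1 and Plcb1 were low in the homozygous library and above wild type in the heterozygous one. Apoc2 was near its wild-type level in the homozygous library and lowest in the heterozygous one.

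**Figure D1:**
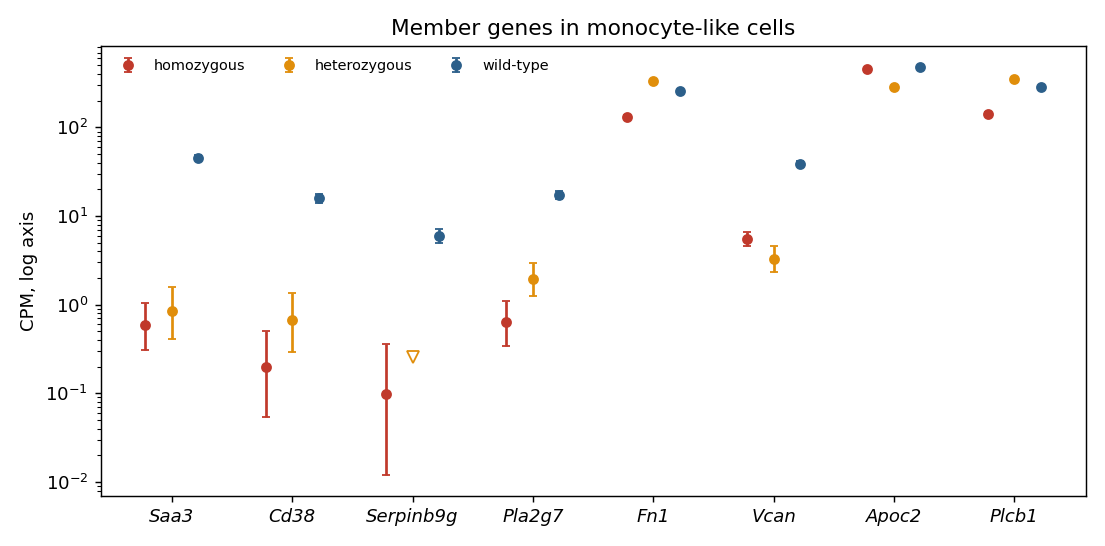
Level of each gene in monocyte-like cells (CPM, log axis) in the homozygous, heterozygous and wild-type libraries, with 95% Poisson intervals where larger than the point and an open triangle at the level of 3 counts where no UMI was found. Saa3, Cd38, Serpinb9g, Pla2g7 and Vcan were highest in the wild-type library, and Fn1 and Plcb1 in the heterozygous library.

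Saa3 had 0.592 CPM in the homozygous library (12 UMIs, interval 0.306 to 1.03), 0.852 CPM in the heterozygous library (10 UMIs, 0.409 to 1.57) and 45.3 CPM in the wild-type library (950 UMIs, 42.5 to 48.3). Both knockout libraries were low and their intervals overlapped each other, and neither reached the wild-type interval. On the log2 scale the homozygous library stood at -6.26 (-7.22 to -5.45) relative to wild type and the heterozygous library at -5.73 (-6.80 to -4.85). The wild-type UMIs came from few cells. A single cell held 238 of the 950, and the 10 cells with most Saa3 held 53.6%, so UMIs were not independent and the Poisson interval is too narrow. Counted as cells with a UMI, the difference was 11 of 1656 homozygous (0.664%) and 9 of 1287 heterozygous (0.699%) against 129 of 1791 wild-type cells (7.20%).

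Cd38 had 0.197 CPM in the homozygous library (4 UMIs), 0.682 CPM in the heterozygous library (8 UMIs) and 15.8 CPM in the wild-type library (331 UMIs). Its log2 ratio to wild type was -6.32 (-8.21 to -4.95) in the homozygous and -4.53 (-5.76 to -3.54) in the heterozygous library. Unlike Saa3, wild-type Cd38 was spread over 200 cells with no more than 6 UMIs in any of them. Pla2g7 had 0.641 CPM in the homozygous library (13 UMIs), 1.96 CPM in the heterozygous library (23 UMIs) and 17.5 CPM in the wild-type library (366 UMIs). The log2 ratio of Pla2g7 to wild type was -4.77 (-5.69 to -3.98) in the homozygous and -3.16 (-3.83 to -2.55) in the heterozygous library. Of the scarce genes, Pla2g7 and Vcan differed between the knockout libraries over the whole class beyond counting error, in opposite directions. The homozygous over heterozygous log2 ratio was -1.61 (-2.72 to -0.57) for Pla2g7 and 0.73 (0.20 to 1.30) for Vcan.

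Vcan had 5.52 CPM in the homozygous library (112 UMIs), 3.32 CPM in the heterozygous library (39 UMIs) and 39.0 CPM in the wild-type library (816 UMIs). Relative to wild type its log2 ratio was -2.82 (-3.12 to -2.53) in the homozygous and -3.55 (-4.05 to -3.09) in the heterozygous library. Serpinb9g had 2 UMIs in the homozygous library, 0 in the heterozygous library and 126 in the wild-type library, where they came from 63 cells. The homozygous over wild-type log2 ratio of Serpinb9g was -5.93 (-8.99 to -4.05), and the heterozygous level was at least 23.5-fold lower than wild type against a floor of 3 counts. Over all kept cells the 161 wild-type Serpinb9g UMIs stood against 2 homozygous and 0 heterozygous ones. Close copies of Serpinb9g exist in the mouse genome, so reads could have been split or dropped among them and its level is uncertain.

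Fn1 had 133 CPM in the homozygous library (2690 UMIs), 336 CPM in the heterozygous library (3939 UMIs) and 259 CPM in the wild-type library (5433 UMIs). Plcb1 had 142, 348 and 288 CPM in the same order of libraries, from 2884, 4082 and 6042 UMIs. The 2 genes thus had the same order of libraries. The homozygous over wild-type log2 ratio was -0.97 (-1.03 to -0.90) for Fn1 and -1.02 (-1.08 to -0.96) for Plcb1, and the heterozygous one was 0.37 (0.31 to 0.43) and 0.27 (0.21 to 0.33). Apoc2 had 454 CPM in the homozygous library, 284 CPM in the heterozygous library and 479 CPM in the wild-type library. Its log2 ratio to wild type was -0.077 (-0.12 to -0.04) in the homozygous library, where 35.4% of all genes tested had a lower ratio, and -0.75 (-0.81 to -0.70) in the heterozygous library. Thus Apoc2 was not among the lost genes in these cells, and it was included as a marker of the wild-type subset.

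The promoters of Saa3, Vcan and Serpinb9g are shown because Saa3 and Vcan marked 1 cluster of wild-type cells and Serpinb9g did not. They are the 250 bases before the RefSeq gene start in GRCm38.p6, written 5′ to 3′ along the gene, and capitals mark motif matches. Saa3 lies on chromosome 7 on the minus strand (window chr7:46715677-46715926), Vcan on chromosome 13 on the minus strand (chr13:89742513-89742762) and Serpinb9g on chromosome 13 on the plus strand (chr13:33484540-33484789).
Saa3: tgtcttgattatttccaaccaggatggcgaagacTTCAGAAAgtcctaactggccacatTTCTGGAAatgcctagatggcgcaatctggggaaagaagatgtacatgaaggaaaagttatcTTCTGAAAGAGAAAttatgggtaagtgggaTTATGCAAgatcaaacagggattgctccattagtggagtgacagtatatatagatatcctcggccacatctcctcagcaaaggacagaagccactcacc
Vcan: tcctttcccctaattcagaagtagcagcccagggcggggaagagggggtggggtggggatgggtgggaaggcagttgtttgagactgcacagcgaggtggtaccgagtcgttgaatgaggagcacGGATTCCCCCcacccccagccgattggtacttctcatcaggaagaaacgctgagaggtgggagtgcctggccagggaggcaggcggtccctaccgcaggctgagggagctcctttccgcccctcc
Serpinb9g: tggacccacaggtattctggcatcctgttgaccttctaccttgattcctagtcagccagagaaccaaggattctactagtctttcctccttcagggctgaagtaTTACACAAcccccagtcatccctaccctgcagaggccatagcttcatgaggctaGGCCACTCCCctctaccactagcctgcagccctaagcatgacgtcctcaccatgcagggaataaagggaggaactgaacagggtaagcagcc
Matches were sought on both strands. The Saa3 window held 4 matches to TTNNGNAA, a loose form of the C/EBP element, and 1 to a loose form of the interferon-stimulated response element, which overlapped the third of the 4. Serpinb9g held 1 match to TTNNGNAA. A match to a loose form of the NF-kB element stood once each in Serpinb9g and Vcan, and the window of Plcb1 held it too. Of 32851 mouse promoter windows of this length, 36.8% held TTNNGNAA, 45.8% the loose NF-kB form and 2.98% the interferon form, so the first and second are common. RefSeq promoters were matched for 7 of the 8 genes, all but Fn1. Among the 7, no window held TTGCGNAA, the strict C/EBP element, or GAGGAAGT, a PU.1 element, with or without its first base. The AP-1 element (TGANTCA), the TATA element (TATAAA) and the strict NF-kB element were not found in them either. Of all windows 0.670% held the strict C/EBP element, 2.44% the PU.1 element and 7.69% its shortened form, 6.75% the AP-1, 12.4% the TATA and 0.140% the strict NF-kB element. A match is a string of letters and was not tested as a binding site.

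Most wild-type UMIs of the scarce genes lay in the Saa3-led cluster. It held 26.0% of wild-type monocyte-like cells and carried 95.6% of the wild-type monocyte-like Saa3 UMIs, 87.2% of Pla2g7, 83.6% of Vcan and 80.4% of Cd38. It also carried 63.0% of Fn1, 56.5% of Plcb1 and 45.4% of Apoc2 UMIs. Serpinb9g was the exception with 6.35%. Fabp4 was found there too, with 31 of the 40 wild-type monocyte-like UMIs.

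Few knockout cells fell into this cluster, and their levels are given with that limit. Saa3 had 0 UMIs in the 17 homozygous cells, 1 in the 96 heterozygous cells (2.56 CPM) and 908 in the 465 wild-type cells (199 CPM). Cd38 had 0, 0 and 266 UMIs in the same order, and Vcan 0, 1 and 682. The homozygous cells set only a weak bound, since at 3 counts 0 UMIs there allow up to 46.7 CPM, not far below the 58.3 CPM of wild-type Cd38. Pla2g7 was the exception, at 77.8 CPM in the homozygous cells (5 UMIs, 25.3 to 182), 20.5 CPM in the heterozygous cells (8 UMIs, 8.84 to 40.4) and 69.9 CPM in the wild-type cells (62.4 to 78.0). Fn1 had 156, 166 and 750 CPM, Plcb1 46.7, 120.3 and 748 CPM, and Apoc2 2318, 1469.8 and 999 CPM in the homozygous, heterozygous and wild-type cells. Median UMI counts were 4451, 3652 and 9123, so the knockout cells were also shallower. Their monocyte markers differed as well. Ly6c2, a surface marker of classical monocytes, had 109, 325 and 1104 CPM, F13a1 187, 238 and 976 CPM and Ccr2, the receptor that draws monocytes out of the marrow, 62.2, 141 and 231 CPM in the homozygous, heterozygous and wild-type cells. In the opposite direction, Cx3cr1, a chemokine receptor high on nonclassical monocytes, had 405, 259 and 44.5 CPM, Csf1r 420.1, 387 and 146 CPM and Adgre1, the F4/80 antigen, 467, 435 and 114 CPM. Of the other monocyte markers, Klf4 had 902, 924 and 599 CPM and Ms4a6c 513, 364 and 623 CPM. Irf8 had 140, 120 and 122 CPM, Ms4a4c 77.8, 94.7 and 75.4 CPM, and Fcgr1 only 1, 2 and 11 UMIs. The homozygous values rest on few UMIs, with 7 for Ly6c2, 12 for F13a1, 4 for Ccr2 and 26 for Cx3cr1. The cluster thus held cells with different levels of several markers in each library, so its member values do not compare like cells.

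**Figure D2:**
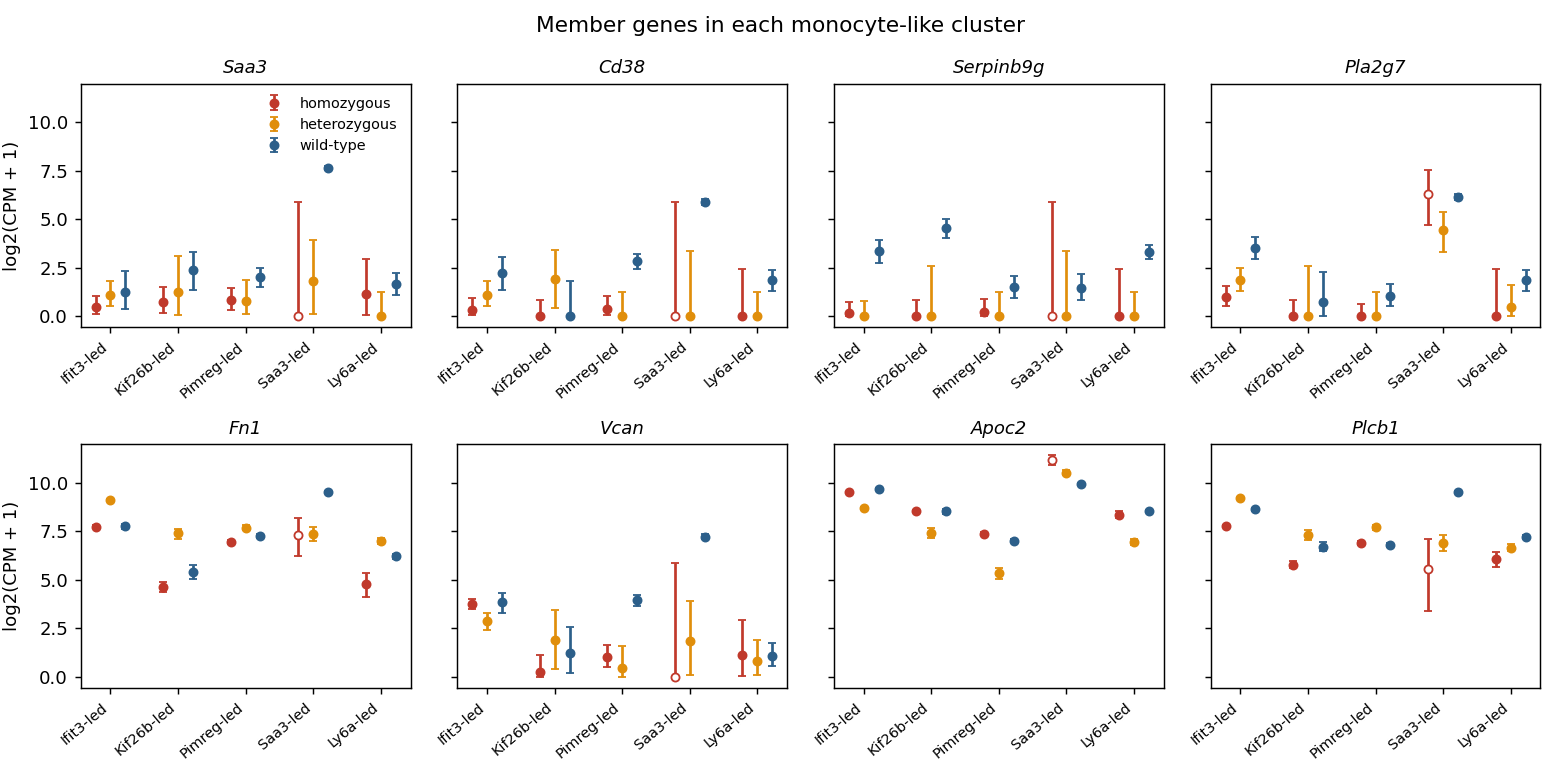
Level of each gene, log2(CPM + 1), in the 5 monocyte-like clusters, each named by its leading gene, with 95% Poisson intervals. Points are the homozygous, heterozygous and wild-type libraries from left to right, and open points rest on fewer than 30 cells. Wild-type Saa3, Cd38, Vcan, Fn1 and Plcb1 peak in the Saa3-led cluster, and wild-type Serpinb9g does not.

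Serpinb9g followed another pattern. In the wild-type library it had 22.1 CPM in the Kif26b-led cluster, 9.21 CPM in the Ifit3-led cluster, 8.86 CPM in the Ly6a-led cluster and 1.80 CPM in the dividing cluster. Wild-type stem and progenitor-like cells also had 1.79 CPM (25 UMIs). The heterozygous library had 0 UMIs and the homozygous library 2 in all of these together, so the difference between libraries was not limited to a single cluster.

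Leaving out the Saa3-led cluster, an alternative added after the data were seen, changed the genes to different extents. The homozygous over wild-type log2 ratio was then -2.11 for Saa3, -4.33 for Cd38, -2.86 for Pla2g7 and -0.56 for Vcan. Fn1 stood at 0.11 and Apoc2 at 0.42, both above wild type, and Plcb1 at -0.17. In the heterozygous comparison Fn1 was at 1.48 and Plcb1 at 1.15, against 0.37 and 0.27 with the cluster. Heterozygous Saa3 was then at -1.69, against -5.73 with the cluster, and Cd38 at -2.49, against -4.53. Pla2g7 was at -1.12, against -3.16, Vcan at -1.29, against -3.55, and Apoc2 at -0.46, against -0.75. Without the cluster, 4 members were at or under 0.5 times wild type in the homozygous library, where 4.01% of all genes were, and 5 in the heterozygous library, where 3.54% were.

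The libraries were also compared with each cluster, the Saa3-led one included, set to its wild-type level. The values differed from those without that cluster, and Fn1 and Apoc2 were then below wild type in the homozygous library. Had every homozygous cluster held wild-type levels, 64.9 Saa3 UMIs would have been counted in monocyte-like cells, and 12 were counted (ratio 0.185, 0.0956 to 0.323). For Cd38 the count was 4 where 76.4 would have been counted, for Pla2g7 13 where it was 103, and for Serpinb9g 2 where it was 197. The ratio was 0.508 for Vcan (0.418 to 0.611), 0.628 for Plcb1, 0.870 for Fn1 (0.837 to 0.903) and 0.954 for Apoc2 (0.935 to 0.974). In the heterozygous library the ratio was 0.0982 for Saa3, 0.122 for Cd38, 0.248 for Pla2g7, 0.227 for Vcan, 0.529 for Apoc2, 1.31 for Plcb1 and 1.89 for Fn1. Thus the homozygous ratios of Fn1 and Apoc2 lay nearest 1, and those of Cd38, Pla2g7 and Serpinb9g stood well below it. The wild-type levels were taken as exact here, so the intervals cover the counts of the knockout library only.

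**Figure D3:**
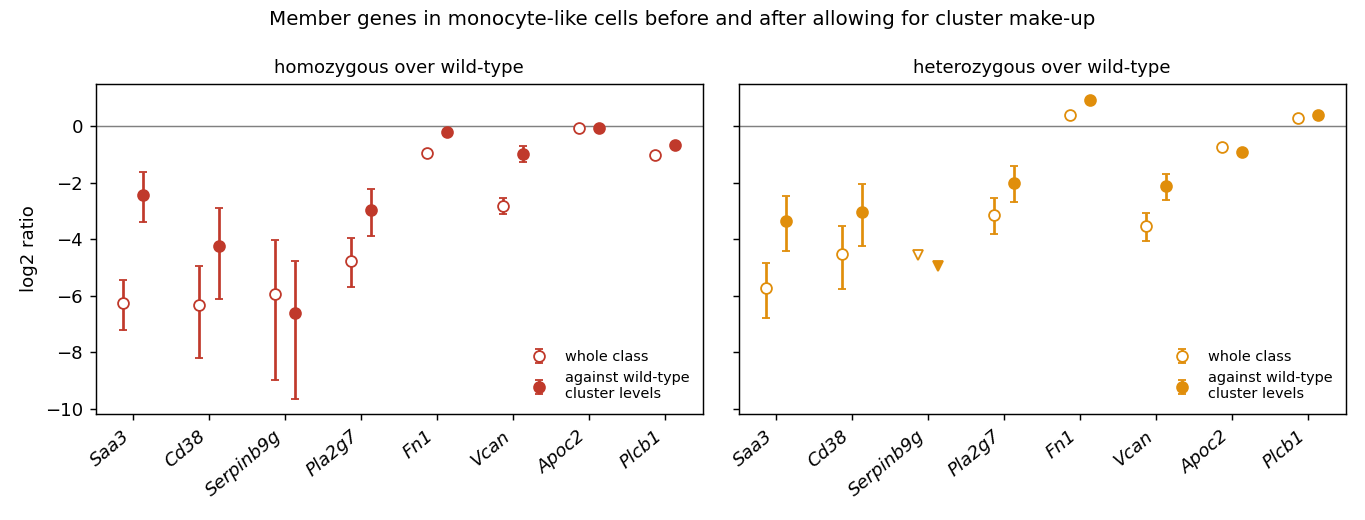
Log2 ratio to the wild-type library in monocyte-like cells, for the homozygous library on the left and the heterozygous library on the right. Open points compare the whole class, filled points compare counted UMIs with those counted if every cluster held its wild-type level, bars are 95% intervals and triangles mark the bound from 3 counts where no UMI was found. Filled points lie nearer 0 than open ones for homozygous Saa3, Cd38, Pla2g7, Vcan, Fn1 and Plcb1.

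Within the largest shared cluster, the Ifit3-led one, the homozygous levels of the matrix genes lay nearer wild type than over the whole class. Vcan had 12.7 CPM in the homozygous library, 6.33 CPM in the heterozygous library and 13.4 CPM in the wild-type library (103, 33 and 29 UMIs). Fn1 had 214, 546 and 218 CPM, so the homozygous and wild-type values lay within each other's intervals and the heterozygous value stood further above wild type than over the whole class. Plcb1 had 219, 591 and 395 CPM, and Apoc2 732, 421 and 823 CPM. Pla2g7 had 0.983, 2.68 and 10.6 CPM and Serpinb9g 0.123, 0 and 9.21 CPM. Both were highest in the wild-type library within that cluster, as was Apoc2 by a smaller margin. Homozygous and wild-type Vcan lay within counting error of each other and were not ranked. As log2(CPM + 1), Saa3 had 0.45, 1.10 and 1.25 there. These levels were low in every library and rest on few UMIs, so their order is not read. Cd38 had 0.32, 1.10 and 2.23 on that scale. In the dividing cluster Vcan had 1.06, 0.364 and 14.4 CPM and Cd38 0.304, 0 and 6.15 CPM, again in the order homozygous, heterozygous and wild type.

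Detection was compared after thinning each monocyte-like cell to 3000 UMIs, which left out 101 homozygous, 114 heterozygous and 84 wild-type cells. Saa3 was then found in 0.193% of homozygous, 0.256% of heterozygous and 3.87% of wild-type cells. In kept cells outside the class it was found in 0.493%, 0.208% and 0.449%, with median depths of 6958.5, 7247.5 and 9573 UMIs against 10686, 8057 and 9983 UMIs in the class. With 3 cells each, the homozygous share was below that of its library outside the class and the heterozygous one above it. Both were within counting error. Whether the Saa3 UMIs of knockout monocyte-like cells were background was not tested. Cd38 was found in 0 of 1555 homozygous cells, in 0.171% of heterozygous and in 4.04% of wild-type cells. Serpinb9g was found in none of the 1555 homozygous and 1173 heterozygous cells and in 1.35% of wild-type cells. Vcan was found in 0.965%, 0.938% and 6.97%, and in none of the mature neutrophil-like cells of any library. Fn1 was found in 19.9%, 39.3% and 28.2%, Plcb1 in 19.2%, 37.1% and 32.2% and Apoc2 in 52.7%, 37.3% and 57.5%. Unthinned, Cd38 was found in 0.242% of homozygous, 0.544% of heterozygous and 11.2% of wild-type cells, and Vcan in 2.60%, 1.94% and 11.6%.

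Detection of several scarce genes in the same cell was then counted. The genes were picked in part as markers of a wild-type subset, so joint detection there follows from the choice and is given as a description. Of the 1707 thinned wild-type cells, 203 had a UMI of just 1 of Saa3, Cd38, Serpinb9g, Pla2g7 and Vcan, 63 of 2, 10 of 3 and 2 of 4. In the homozygous and heterozygous libraries 21 and 24 cells had a UMI of 1 of them, and no cell had 2. So few cells held any of these genes there that joint detection could not be seen, since independence would give 0.0289 homozygous and 0.0281 heterozygous cells for Saa3 and Vcan. Unthinned, 2 homozygous, 1 heterozygous and 200 wild-type cells had 2 or more. Fn1 and Vcan were found together in 100 wild-type cells, where independence would give 33.6 (odds ratio 16.6). Saa3 and Cd38 were found together in 15 cells where it would give 2.67 (odds ratio 8.64), and Saa3 and Vcan in 21 (odds ratio 7.35). Serpinb9g was found with none of Saa3, Cd38, Pla2g7 and Vcan, but fewer than 2 cells would be expected for each pair. In unthinned wild-type cells it was found with Vcan in 1 cell where independence would give 7.32 (odds ratio 0.119). With Cd38 it was found in 2 cells where 7.04 would be given, with Pla2g7 in 3 where 6.86 would, and with Saa3 in 3 where 4.54 would. Pairs of the abundant genes also occurred in the knockout libraries. Fn1 and Plcb1 were found together in 119 homozygous cells where independence would give 59.4 (odds ratio 3.71) and in 320 wild-type cells where it would give 155 (odds ratio 8.59).

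**Figure D4:**
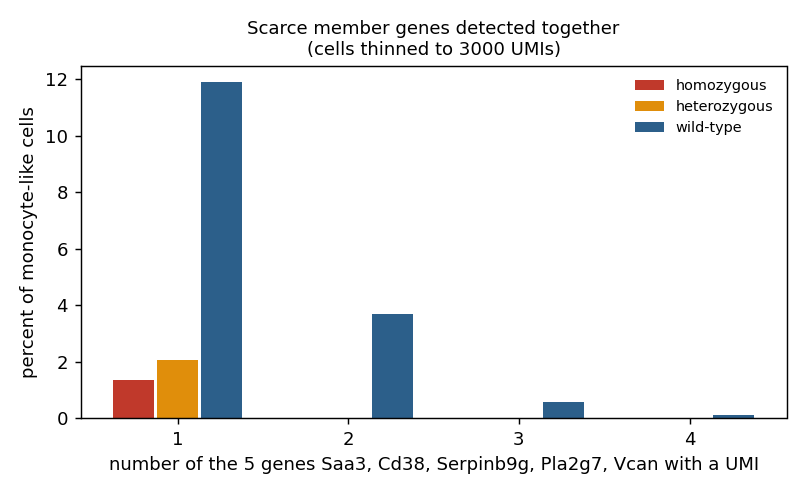
Percent of monocyte-like cells in the homozygous, heterozygous and wild-type libraries in which 1, 2, 3 or 4 of the 5 scarce genes had a UMI, after thinning each cell to 3000 UMIs. Cells with 2 or more numbered 0 in both knockout libraries, where independence would give under 1, and 75 of 1707 in the wild-type library.

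Cells alike in Xist and Y-linked reads were also compared across libraries. Among monocyte-like cells with Xist and no Y-linked UMI, Saa3 had 0.546 CPM in the homozygous, 0.825 CPM in the heterozygous and 45.9 CPM in the wild-type library. Pla2g7 had 0.655, 0.550 and 17.1 CPM there, Serpinb9g 0.109, 0 and 5.99 CPM, and Fn1 125, 333 and 260.4 CPM. Among the 541 heterozygous cells with Y-linked UMIs and no Xist, Saa3 had 1.18 CPM, Pla2g7 3.34 CPM (17 UMIs) and Serpinb9g 0. The wild-type library had 10 cells of that kind, too few for a comparison. In heterozygous cells with Xist and no Y-linked UMI, Pla2g7 rested on 2 UMIs. Its interval there (0.0666 to 1.99 CPM) overlapped the homozygous one (0.338 to 1.14 CPM). The lower homozygous Pla2g7 level over the whole class was thus not seen in those cells.

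Outside monocyte-like cells the members were mostly scarce, and their patterns differed by gene. Serpinb9g was also below wild type in granulocyte-monocyte progenitor-like and stem and progenitor-like cells of both knockout libraries. Of 5 large classes, monocyte-like cells included, heterozygous Saa3, Pla2g7 and Vcan were each below wild type in 4. In the homozygous library Saa3 was below wild type in 2 of these classes, and Pla2g7 and Vcan in 1. Outside the class, Saa3 had 20 UMIs in 2382 homozygous, 88 in 5988 heterozygous and 93 in 3390 wild-type cells. These counts are not scaled for the unequal cell numbers and do not compare levels. Of the heterozygous UMIs, 54 came from 1 stromal-like cell. Cd38 had 0.997 CPM in the homozygous, 1.90 CPM in the heterozygous and 1.45 CPM in the wild-type library outside the class. T and natural killer-like cells, known to carry Cd38, numbered 23, 18 and 24 in the homozygous, heterozygous and wild-type libraries. Cd38 had 38.2, 21.1 and 16.6 CPM in them from 10, 3 and 3 UMIs, too few to rank the libraries. In stem and progenitor-like cells Fn1 had 22.8 CPM in the homozygous, 21.9 CPM in the heterozygous and 11.7 CPM in the wild-type library, and Plcb1 49.1, 48.7 and 28.2 CPM. Thus Fn1 and Plcb1 were higher in both knockout libraries there. Apoc2 was found in every large class, with 81.4, 19.97 and 62.0 CPM in granulocyte-monocyte progenitor-like cells and 130.4, 54.1 and 92.4 CPM in immature neutrophil-like cells of the homozygous, heterozygous and wild-type libraries.

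**Figure D5:**
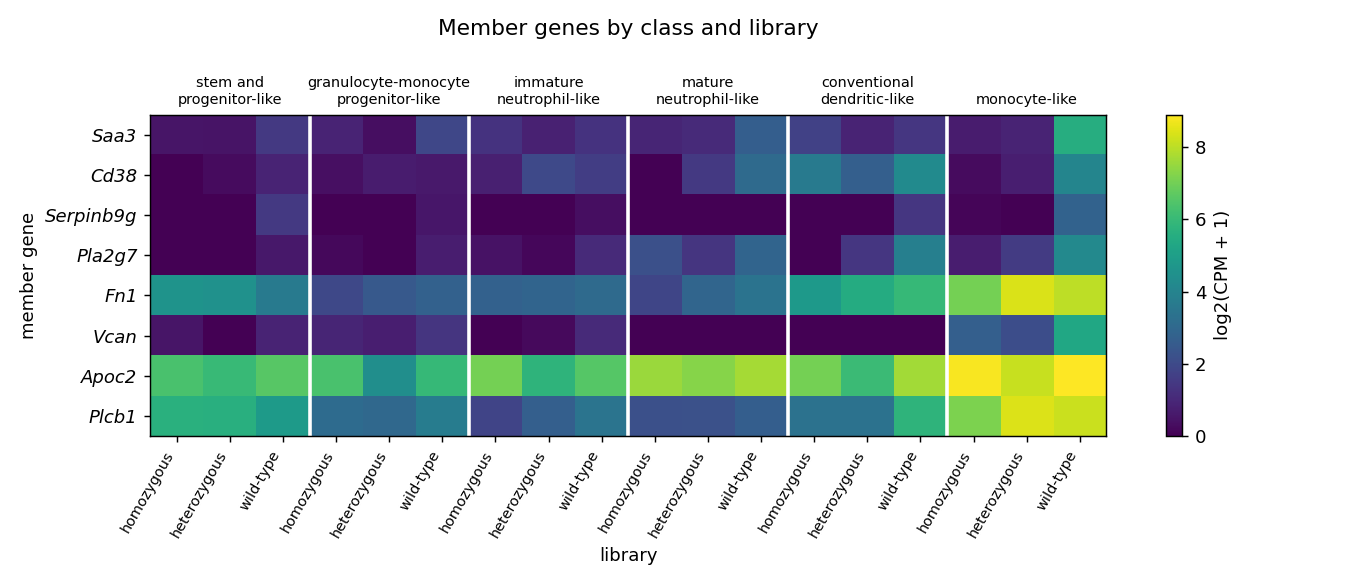
Level of each gene, log2(CPM + 1), as colour in 6 classes of kept cells, with the homozygous, heterozygous and wild-type libraries from left to right in each class. Fn1, Plcb1 and Vcan are highest in monocyte-like cells, and Apoc2 is present in all 6 classes.

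Relatives of the members varied in whether they shared the order of libraries. Saa1 and Saa2, the serum amyloids of the liver, had 0 UMIs in monocyte-like cells of all libraries, and Saa4 had 1 in the wild-type library. Bst1, which shares the enzyme activity of Cd38 and lies beside it in the genome, had 15.8 CPM in the homozygous, 18.4 CPM in the heterozygous and 51.6 CPM in the wild-type library, with log2 ratios of -1.71 (-1.89 to -1.53) and -1.49 (-1.71 to -1.28) to wild type. Serpinb9, the granzyme B inhibitor, had 7, 2 and 7 UMIs, Serpinb9f 0, 0 and 5, and Serpinb9b 0 in all. Intracellular platelet-activating factor hydrolase genes did not follow Pla2g7. Pafah1b1 had 312, 349 and 308 CPM, and Pafah2 3.35, 3.32 and 5.30 CPM. Of the other beta-type phospholipases, Plcb2 had 21.9, 26.5 and 25.9 CPM and Plcb4 8.43, 18.1 and 14.7 CPM, which is the same order of libraries as Plcb1. Apoc1, which lies in the same apolipoprotein cluster as Apoc2, had 14.6 CPM in the homozygous, 9.97 CPM in the heterozygous and 8.02 CPM in the wild-type library, and Apoe had 12.9, 14.7 and 13.7 CPM.

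Genes of the members' pathways were described with the members left out. Of 11 measured acute-phase genes, 2 were at or under 0.5 times wild type and 0 at or over 2 times in the homozygous library (2.88% of all genes were that high there and 3.16% in the heterozygous comparison). Their median log2 ratio was -0.62 where that of all genes was 0.05. The 2 were Lcn2, a siderophore-binding protein, at 47.7 CPM in the homozygous, 362 CPM in the heterozygous and 269.8 CPM in the wild-type library, and Fpr2, a formyl peptide receptor that also binds serum amyloid A, at 3.75, 10.1 and 15.1 CPM. Lcn2 is also made by maturing neutrophils, whose markers differed among these libraries as given above. In the heterozygous library 1 of the 11 genes was that low and 1 at or over 2 times, with a median of 0.09 where that of all genes was -0.03. Of the other matrix and receptor genes 13 were measured, with 1 low and 1 high in the homozygous library (median -0.12) and 0 low and 2 high in the heterozygous library (median 0.21), among them Thbs1 (thrombospondin), at 1.63, 11.6 and 3.53 CPM. None of the 19 measured phospholipase C and phosphoinositide genes passed 2-fold in either library, with medians of -0.13 in the homozygous and 0.19 in the heterozygous comparison. The apolipoprotein list had 1 low and 1 high of 16 in the homozygous library and 0 low and 1 high of 15 in the heterozygous library. For NAD metabolism 1 low and 1 high of 16 and 2 low and 0 high of 14 were found in the homozygous and heterozygous libraries. The platelet-activating factor list had 1 low and 0 high of 13 in the homozygous and 1 low and 2 high of 15 in the heterozygous library. The list of clade B serpins, which also held granzymes and perforin, had 0 low and 1 high of 4 in each.

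Other monocyte and macrophage genes lay on both sides of wild type. Of 16 classical monocyte genes beside the members, 1 was low and 2 high in the homozygous library, with a median of 0.39, and 1 low and 0 high in the heterozygous library, with a median of 0.15. The low one was Chil3, a chitinase-like protein, at 1178 CPM in the homozygous, 898 CPM in the heterozygous and 2865 CPM in the wild-type library. It is also on the list of 8 immature neutrophil markers, which summed to 2352 CPM in the homozygous, 3716 CPM in the heterozygous and 4158 CPM in the wild-type monocyte-like cells. Fcgr1, the high-affinity IgG receptor, was at 19.3, 5.79 and 5.63 CPM. Of 8 measured tissue macrophage genes 3 were low and 2 high in the homozygous library and 0 low and 1 high in the heterozygous library. Cd163, the haemoglobin-haptoglobin receptor, was at 8.24, 13.6 and 2.15 CPM and Mertk, a receptor for dying cells, at 0.641, 1.87 and 2.77 CPM. Of 11 macrophage secretory genes 3 were low and 0 high in the homozygous library, among them the chemokine Cxcl2 at 71.0, 589.7 and 491 CPM, and of 14 in the heterozygous library 0 were low and 3 high. Cxcl2 was also a leading gene of a mature neutrophil-like cluster, and the mature neutrophil markers summed to 839.6, 3480.3 and 1329 CPM in these cells. The part of neutrophil RNA in Chil3 and Cxcl2 was not tested. Of 11 nonclassical monocyte genes 2 were low and 0 high in the homozygous library, namely Fcgr4, at 3.40, 8.09 and 16.1 CPM, and Fabp4 itself, and of 12 in the heterozygous library 0 were low and 4 high.

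Genes with a pattern like that of a member were sought over 34 sums by cluster and library, using log2(CPM + 1). These sums share their 3 libraries and differ in depth, so the correlations are a description. The Saa3-led cluster entered as its wild-type sum alone, which was the highest of the 34 for Saa3, Cd38, Pla2g7 and Vcan. Saa3 stood at 7.64 in that sum and at 2.81 or less in the others. How far the correlations of these genes rest on that 1 sum was not tested. Saa3 was most like Tnfrsf23 (Pearson r 0.72), Pmp22 (0.69) and Pla2g7 (0.69). Vcan was most like Ms4a8a (0.86), Pmp22 (0.77) and Msr1 (0.77). Fn1 was most like P2ry10b (0.95), Capn2 (0.94) and Plcb1 (0.93), and Plcb1 like F13a1 (0.94), Fn1 (0.93) and Capn2 (0.92). Pmp22 had 0.691 CPM in the homozygous, 0.596 CPM in the heterozygous and 10.4 CPM in the wild-type monocyte-like cells, so both knockout libraries were below wild type for it, as for Saa3. F13a1 had 905, 1157 and 709 CPM and Capn2 41.3, 39.9 and 34.8 CPM, so neither shared the low homozygous level of Plcb1 or Fn1. Cd38 was most like Pla2g7 (0.71), Epha1 (0.66) and Ear2 (0.65), Pla2g7 like Igfbp6 (0.80), Cd302 (0.78) and Ms4a8a (0.75), Apoc2 like Bin2 (0.86), Csf2rb (0.86) and Zbp1 (0.84), and Serpinb9g like Klk1b27 (0.69), Gab1 (0.69) and Rusc2 (0.63).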

How the data were processed

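The deposited matrices hold raw UMI counts per gene and barcode, made by the authors with Cell Ranger 8.0.1, per the file headers. Per the submitters' processing notes, Cell Ranger, STAR and mm10 were used. The annotation release is not given in the sources used here, and 1684 of the 33696 gene IDs are not in GENCODE M21. Positions and promoters therefore come from GRCm38 by gene ID and are not the authors' coordinates. The kit was Chromium 3' v3, per the labels' protocols. Deposited barcodes had at least 500 UMIs.

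Cells with at least 500 UMIs, 200 genes and under 10% mitochondrial UMIs were kept. Scrublet's automatic threshold marked under 0.5% of cells, so the top-scoring 0.8% per 1000 deposited barcodes were removed (280 homozygous, 682 heterozygous and 423 wild-type cells). All libraries were clustered together without batch integration on 2000 variable genes, leaving out the 8 members, Fabp4, Xist, Tsix, Y-linked and antigen receptor genes, with 30 components, 15 neighbours and Leiden resolution 1.0. Clusters were named from 17 marker lists by scoring thresholds set after the data were seen. Shallow clusters without markers of their own remained unnamed (663 homozygous, 336 heterozygous and 147 wild-type cells). UMIs were summed per library and class. Intervals are Garwood for levels, Clopper-Pearson for shares and exact conditional for ratios. The members and gene lists were chosen with earlier results of these data known. Named genes were all 8 members, list genes whose ratio interval lay beyond 2-fold (a part of them is printed), the nearest relatives and the 3 most alike genes. On simulated counts for homozygous against wild-type monocyte-like cells (14084 genes), intervals covered 98.0% of 100 genes shifted by log2 -1, 99.0% of 100 shifted by log2 -3 and 95.5% of the unshifted genes. Simulation left out clumping of UMIs within cells, so this coverage tests the interval arithmetic alone. It cannot show coverage for genes such as Saa3, whose wild-type UMIs came from few cells. Tools were Python 3.11.15, scanpy 1.11.5, numpy 2.4.6, scipy 1.17.1 and pandas 2.3.3. Other filters, clusterings, weights and scalings were tried.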

Additional observations from a re-analysis of the deposited data

Results flagged for a closer look

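Some members had opposite directions in different classes of the same comparison, with both intervals on opposite sides of equality. The differences between classes were not tested. For Fn1, the homozygous over wild-type log2 ratio was 0.96 in stem and progenitor-like cells, -1.05 in granulocyte-monocyte progenitor-like cells and -0.97 in monocyte-like cells. For Plcb1 it was 0.80, -0.70 and -1.02 in those classes and -1.94 in immature neutrophil-like cells, where the homozygous library had 7 UMIs. The heterozygous over wild-type log2 ratio of Plcb1 was 0.79 in stem and progenitor-like cells and 0.27 in monocyte-like cells, against -0.82 in granulocyte-monocyte progenitor-like and -0.84 in immature neutrophil-like cells. For Apoc2, the homozygous over wild-type log2 ratio was 0.39 in granulocyte-monocyte progenitor-like and 0.50 in immature neutrophil-like cells, against -0.077 in monocyte-like and -0.24 in stem and progenitor-like cells.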

How the results depend on the processing

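No paired analysis was possible because each genotype has 1 library. The number of members at or under 0.5 times wild type in monocyte-like cells was 6 in the homozygous library and lay between 4 and 7 over 12 alternatives, and it was 5 in the heterozygous library under each of them. Saa3, Cd38, Serpinb9g, Pla2g7, Vcan and Plcb1 kept a homozygous level below wild type under every alternative that gave a value; thinning left no homozygous Cd38 or Serpinb9g UMI and so no ratio. Without the Saa3-led cluster, Fn1 reversed to 0.11 and Apoc2 to 0.42. The homozygous log2 ratio ranged from -6.92 to -2.11 for Saa3, from -1.26 to 0.11 for Fn1 and from -1.31 to -0.17 for Plcb1, where doublets kept gave the lowest Fn1 and Plcb1 values and leaving out the Saa3-led cluster the highest of all 3. A cluster led by Saa3 was found in all 8 clusterings, with 80.3% to 87.9% of wild-type Saa3 UMIs. Its knockout cells were less stable. At Leiden resolution 2.0 it held 3 homozygous, 11 heterozygous and 391 wild-type cells, against 17, 96 and 465 in the main clustering. Scaling by the median of ratios shifted all homozygous ratios by -0.06 and heterozygous ones by 0.01. Depth limits the scarce genes, since 0 Serpinb9g UMIs in the heterozygous class allow up to 0.256 CPM at a floor of 3 counts. The share of all genes at or under 0.5 times wild type was 2.95% in the homozygous and 2.13% in the heterozygous comparison with at least 50 UMIs, and 7.78% and 8.43% with at least 5.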
